A study of Glycine max with 23 samples.

Results

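The endothelium and the inner integument, adjacent layers of the young soybean seed coat, were compared on 4 of the 23 arrays of a laser-capture study of soybean (Glycine max) seeds with heart-stage embryos. The arrays were taken by their labels: 2 endothelium and 2 inner integument arrays, each called a biological replicate. Plants of cultivar Asgrow A3237 were kept at 22 °C under days of 16 h light and 8 h dark, and nothing in the labels sets the compared groups apart other than the captured layer. Seeds from pods of 1.3 to 2.0 cm were put in a mix of ethanol with acetic acid, set in paraffin and sectioned at 8 µm. Each layer was cut out with a laser, and 2 ng of its total RNA was amplified, labelled and hybridised to an Affymetrix soybean array. The labels do not say how many seeds or plants went into a replicate, so each p-value reflects just the variation among these arrays, which may be technical. The spread was estimated from all 19 captured arrays, which also hold the embryo proper, suspensor, endosperm, outer integument, epidermis and hilum.

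The inner integument surrounds the embryo sac, and the endothelium is its innermost cell layer, which faces the endosperm. In Arabidopsis the endothelium makes proanthocyanidins, the flavonoid polymers that brown the seed coat, through the product of BANYULS, an anthocyanidin reductase. In legumes the seed coat also unloads the sugars and amino acids that the mother plant sends to the embryo, since no vascular strand crosses into the embryo itself.

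Genes listed as markers of the seed coat were detected in both layers. The transcription factor genes AGL1L, MADS28 and SEP1, the aquaporin gene PIP2-8 and the peptide genes GASA27 and GASA6 were above background on all 4 arrays, where background was the 95th percentile of the array's pathogen probe sets, whose targets the plant lacks (140.2 and 196.2 signal units in the endothelium, 181.1 and 231.4 in the inner integument). LEC1-A, an embryo regulator, and MP2, a seed protein gene with 46600 units in the suspensor, were below background on all 4. WRI1B, an embryo regulator, and PM9, a maturation protein gene, were each above background on 1 inner integument array only. Other genes listed as markers of the embryo or suspensor were present. ELIP, a light-stress protein gene, and the rubisco activase genes RCA14, RCAALPHA, RCABETA and RCA11 were above background on all 4 arrays, as was WRKY51, at 32800 units in the suspensor. LOX3, a lipoxygenase gene at 27100 units in the suspensor, was above background on 3 of the 4. Signal above background on all 4 arrays was common, at 13009 of the 22742 probe sets tested below, so it does not identify a layer. The labelled identity of the endothelium was not borne out evenly by its Arabidopsis marker. ANR1, the soybean anthocyanidin reductase gene, had signals of 517.0 and 6692.1 in endothelium replicates 1 and 2 and of 620.8 and 47.9 in inner integument replicates 1 and 2. One endothelium array thus lay below an inner integument array, and ANR1 was not called (log2 difference 3.23 ± 1.05 SE, limma adjusted p = 0.068).

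Transcripts of each other captured compartment were followed in the 4 arrays as a measure of carry-over between regions. They were chosen as at least 4-fold higher there than in each of the other captured compartments, with the endothelium and inner integument left out of the choice, so some are as high or higher in these layers. The 76 hilum transcripts had a median signal of 6.03% of their hilum level in endothelium replicate 1 and of 22% in replicate 2. They stood at 6.08% and 2.96% in the inner integument. Their summed signal was 60800 and 125000 in the endothelium and 86800 and 83300 in the inner integument, so the sums overlapped. Endothelium replicate 2 therefore had the highest median of the 4 arrays, and over all tested probe sets it correlated with the hilum arrays at r = 0.85 and 0.852, against 0.774 and 0.772 for replicate 1. The 154 outer integument transcripts had medians of 17.9% and 12.6% of their source level in the inner integument and of 3.69% and 4.79% in the endothelium. The 180 endosperm transcripts, from the tissue that touches the endothelium, were at 3.23% and 3.98% in the endothelium and at 2.85% and 2.32% in the inner integument. The 63 epidermis transcripts did not set the endothelium replicates apart, at 4.60% and 4.68%, against 3.32% and 2.06% in the inner integument. Their summed signal set the layers apart, at 157000 and 138000 in the endothelium against 28100 and 22100 in the inner integument. Sums of the endosperm set were 193000 and 148000 against 86300 and 59300. Those of the outer integument set went the other way, at 273000 and 221000 against 880000 and 935000. For 428 suspensor transcripts the medians were 6.04% and 6.11% against 3.33% and 3.97%, and the sums 1190000 and 901000 against 650000 and 744000. Cells of another region in a captured area and expression by the layer itself cannot be told apart on these arrays, and the same holds for cell number and RNA per cell.

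**Figure D1:**
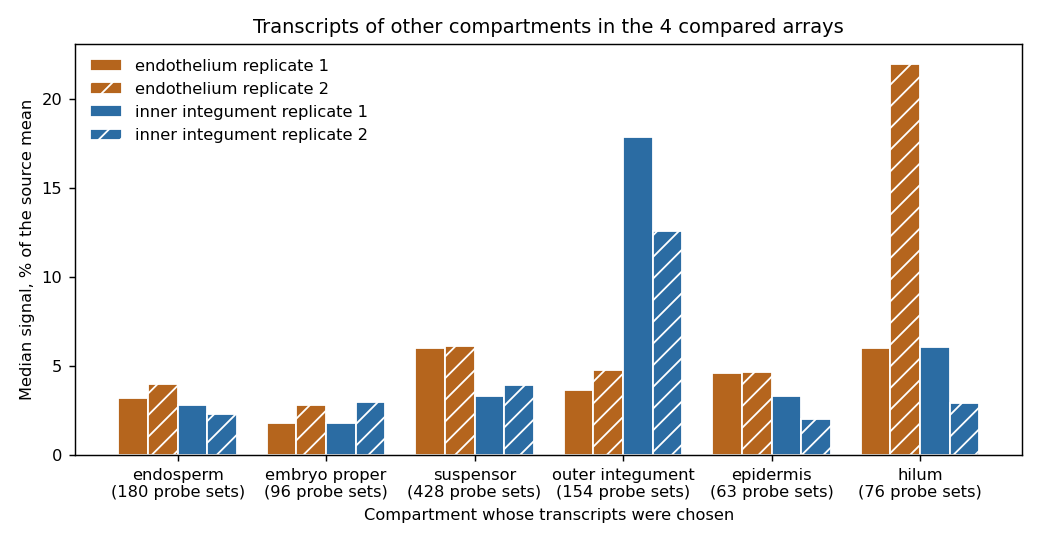
Median signal of transcripts chosen for another compartment, as a percentage of their mean in that compartment (y axis), in each of the 4 compared arrays (bars). The hilum transcripts reached 22% in endothelium replicate 2, and the outer integument transcripts 17.9% and 12.6% in the inner integument.

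The layers differed in 1799 of 22742 tested soybean probe sets (7.91%), called where the adjusted p was below 0.05 and the difference 2-fold or more. Of these, 1161 were higher in the endothelium (5.11% of those tested) and 638 in the inner integument (2.81%). Differences of at least 4-fold numbered 858 and 441, and of at least 16-fold 183 and 43. The signals of the 2 sides did not overlap for 1797 of the called probe sets, a separation that the threshold for a call makes likely. The share without overlap among all tested probe sets is not given here. Above background on all 4 arrays were 13009 tested probe sets, called or not, and the median log2 difference over all tested was 0.04. The mean profile of the endothelium correlated at r = 0.858 with that of the inner integument, above its value with the hilum (0.84), the epidermis (0.836) and the outer integument (0.813), over the tested probe sets and without a test. This order did not hold for endothelium replicate 2 alone, whose values with the inner integument arrays were 0.837 and 0.782, below those with the hilum. The 2 endothelium arrays correlated with each other at 0.907 and the 2 inner integument arrays at 0.869. The median over the 14 pairs of arrays of the same captured group was 0.92. Inner integument replicate 2 had the fewest soybean probe sets above background of the 4 arrays, at 16177.

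**Figure D2:**
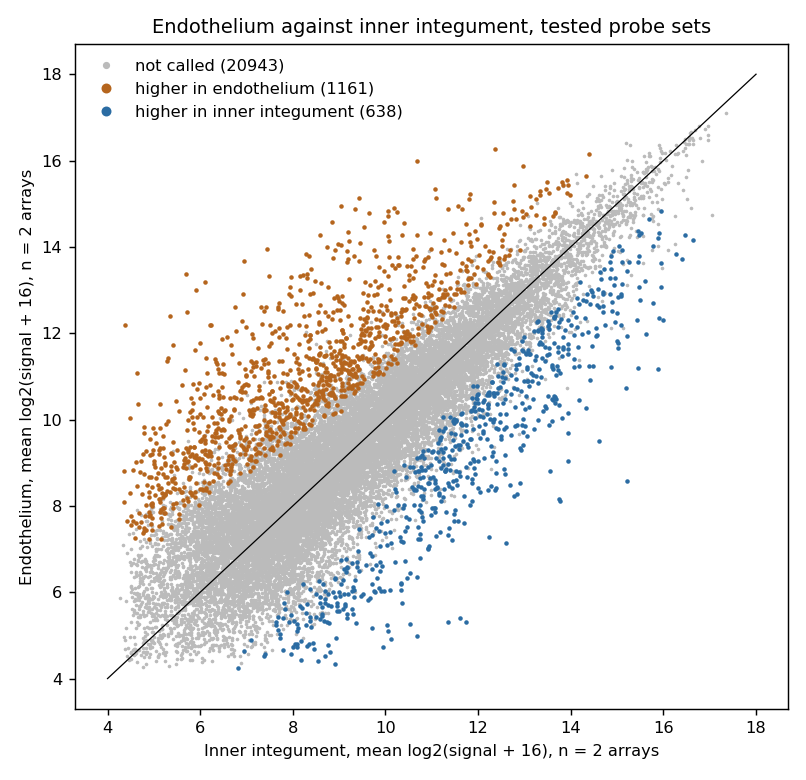
Mean log2(signal + 16) of each tested probe set in the inner integument (x axis) and the endothelium (y axis), 2 arrays each. The diagonal marks equal levels; 1161 called probe sets lie above it and 638 below.

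The number of calls rested on single arrays. It was 1036 without endothelium replicate 1, 970 without endothelium replicate 2, 2136 without inner integument replicate 1 and 832 without inner integument replicate 2, where the array left on its own was assumed to vary like the other groups. Of the 1799 calls, 526 (29.2%) held in all of these fits, 397 higher in the endothelium and 129 higher in the inner integument. No call changed sign. Among the 76 called probe sets named by rule below, 34 kept their call without any one of the 4 arrays; a gene below is said to have lost its call where it did not.

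Genes for making phenylpropanoids, the precursors of lignin and of flavonoids, gave the highest share of calls toward the endothelium of any list. Of 9 tested genes of this pathway, 5 were called higher there and none in the inner integument, with a median log2 difference of 2.80. Over all 772 tested genes with a symbol, 61 (7.9%) were called higher in the endothelium and 35 (4.53%) in the inner integument, with a median of -0.01. The count was 3 without either endothelium array or without inner integument replicate 2, and 4 without inner integument replicate 1. CCR encodes cinnamoyl-CoA reductase, the entry step to lignin monomers. Its signals were 9718.7 and 6086.3 in the endothelium and 528.3 and 89.9 in the inner integument (log2 difference 5.0 ± 0.73, limma adjusted p = 0.00021). Both endothelium arrays lay far above both inner integument arrays, 1 of which was below background.

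4CL3 encodes a 4-coumarate:CoA ligase, which activates cinnamic acids for both branches. It gave 10496.8 and 5242.5 in the endothelium against 230.4 and 232.0 in the inner integument, a 30.1-fold difference (4.91 ± 0.69, limma adjusted p = 0.00015). CYP98A2 encodes a cytochrome P450 that hydroxylates the p-coumaroyl ester on the way to lignin and was at 16220.0 and 11208.8 against 602.7 and 540.8, or 23-fold (4.52 ± 0.85, limma adjusted p = 0.0019). The 3 genes had their highest mean in the endothelium among the 8 compartments. For CYP98A2 this mean was 13700 ± 3540 (SD, n = 2 arrays), with the suspensor next at 2740 ± 1600, although its probe set is among those chosen above as suspensor transcripts. For CCR it was 7900 ± 2570 against 1960 ± 1270 in the suspensor. For 4CL3 it was 7870 ± 3720 against 2000 ± 1390 in the epidermis.

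The other called members, named after their values were seen, were C4H, the cinnamate hydroxylase gene of the preceding step (14501.9 and 8855.6 against 5112.8 and 1899.6, log2 difference 1.86), and 4CL1 (2949.1 and 2692.7 against 549.2 and 277.7, 2.80). Both were lost in at least 3 of the 4 fits without an array. The remaining members gave log2 differences of 2.87 for 4CL2, 1.69 for 4CL4, -0.05 for PAL2.1, a phenylalanine ammonia-lyase gene, and -0.29 for 4CL. Of 5 further CYP98A2 probe sets, 3 were called higher in the endothelium (2.07, 2.93 and 5.09) and 2 were near zero (0.13 and 0.08). Probe sets of such families may match more than one transcript, so the level of a single copy is uncertain.

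The flavonoid, anthocyanin and proanthocyanidin genes gave 4 calls among 15 tested members, all higher in the endothelium, and a median of 1.46. These counts rested on endothelium replicate 2, the array with the highest median of hilum transcripts. Without it 1 member was called and the median was 0.75, and without inner integument replicate 2 there were 2 calls. The member that kept its call throughout was UGT78K1, which encodes an anthocyanidin glucosyltransferase. Its signals were 759.9 and 372.1 in the endothelium and 18.1 and 59.5 in the inner integument, below background on both, so that the difference was at least 2.49-fold (3.43 ± 0.63, limma adjusted p = 0.0016). Such a bound sets the mean of the brighter layer against, for each array of the other layer, whichever is larger of its background and the gene's signal.

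Of the other 3 calls, CHI4A and ANS2 differed more between the endothelium arrays. CHI4A, for a chalcone isomerase, gave 1706.4 and 6501.9 against 439.6 and 54.4 (4.23 ± 0.82, limma adjusted p = 0.0026). CHI2-A, for another, gave 786.9 and 1587.8 against 150.2 and 213.9, at least 5.14-fold (2.54 ± 0.51, adjusted p = 0.0035). ANS2, for anthocyanidin synthase, gave 996.8 and 10497.5 against 859.6 and 154.0 (3.08 ± 0.79, adjusted p = 0.019). Replicate 2 was the higher endothelium array for all 3, and all 3 lost their call without it, with adjusted p of 0.065, 0.07 and 0.35. CHI4A and ANS2 also lost it without inner integument replicate 2. CHI2-A had its highest mean in the suspensor. ANS2, CHI4A and the uncalled ANR1 were high in the hilum, whose transcripts had a higher median in replicate 2. They were also high in the epidermis, whose transcripts did not have a higher median in replicate 2. ANS2 averaged 33500 in the epidermis and 25300 in the hilum, CHI4A 31200 and 16100, and ANR1 5320 and 16100. The part of carry-over in these differences was not tested.

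The tested genes for dihydroflavonol reductase and leucoanthocyanidin reductase were not called. DFR1, of the former kind, stood at 567.6 and 2308.7 in the endothelium and at 553.8 and 248.0 in the inner integument (1.59 ± 0.92, limma adjusted p = 0.36). DFR2 was at 249.7 and 108.1 against 214.1 and 6.6 (adjusted p = 0.52). LAR1, of the latter, was below background on all 4 arrays, at 18.9, 128.1, 49.4 and 60.5. Chalcone synthase, the first step, gave log2 differences of 1.46 for CHS8 and 0.70 for CHS1, neither called. The chalcone isomerase genes without a call differed in sign, with 1.86 for CHI1A, -0.39 for CHI1B1 and -2.10 for CHI3A1.

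Isoflavonoid genes, whose products are legume defence compounds and nodulation signals, gave 3 calls among 11 tested members, each higher in the endothelium, and a median of 1.24. IFR2, for an isoflavone reductase, was at 18818.9 and 13148.1 against 2916.2 and 1380.4, a 7.78-fold difference (2.96 ± 0.55, limma adjusted p = 0.0018). It kept its call throughout and was highest in the endothelium of all 8 compartments, at 16000 ± 4010 (SD, n = 2 arrays), with the outer integument next at 9330 ± 355. HIDH, for a hydroxyisoflavanone dehydratase, was at 868.7 and 2807.3 against 810.0 and 3.0 (3.66 ± 1.02, adjusted p = 0.032). Endothelium replicate 1 and inner integument replicate 1 were nearly equal for HIDH. IF7MaT, for an isoflavone malonyltransferase, was at 214.8 and 1848.8 against 62.3 and 23.3, at least 2.97-fold (3.56 ± 0.84, adjusted p = 0.012). Without endothelium replicate 2, and likewise without inner integument replicate 2, IFR2 was the only call. The isoflavone synthase genes, which make the first isoflavonoid, were not called, with log2 differences of -2.39 for IFS2 (adjusted p = 0.056) and -0.85 for IFS1.

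GASA genes encode small cysteine-rich peptides, many of which respond to gibberellin in Arabidopsis. Of 13 tested, 3 were called, all higher in the endothelium, with a median of 0.58. GASA14 gave 7859.1 and 13239.6 against 397.4 and 178.8, the latter below background (5.17 ± 0.45, limma adjusted p = 1.5e-06). GASA34 gave 2968.0 and 3954.0 against 242.0 and 291.1, 12.2-fold (3.61 ± 0.71, adjusted p = 0.003). GASA32 was at 866.6 and 907.7 against 8.9 and 14.3, at least 4.09-fold (5.04 ± 0.63, adjusted p = 4.9e-05). In each case the layers were well separated and the call held without any one array. The probe sets of GASA14 and GASA32 stem from one design sequence, so they may not be independent, and of 2 further GASA14 probe sets one, from that same design sequence, was called at 4.90 and the other differed by 0.27. None of the 3 peaked in the endothelium: GASA14 averaged 36200 ± 3170 (SD, n = 3 arrays) in the embryo proper, and GASA34, one of the chosen suspensor transcripts, 28100 ± 15300 in the suspensor.

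**Figure D3:**
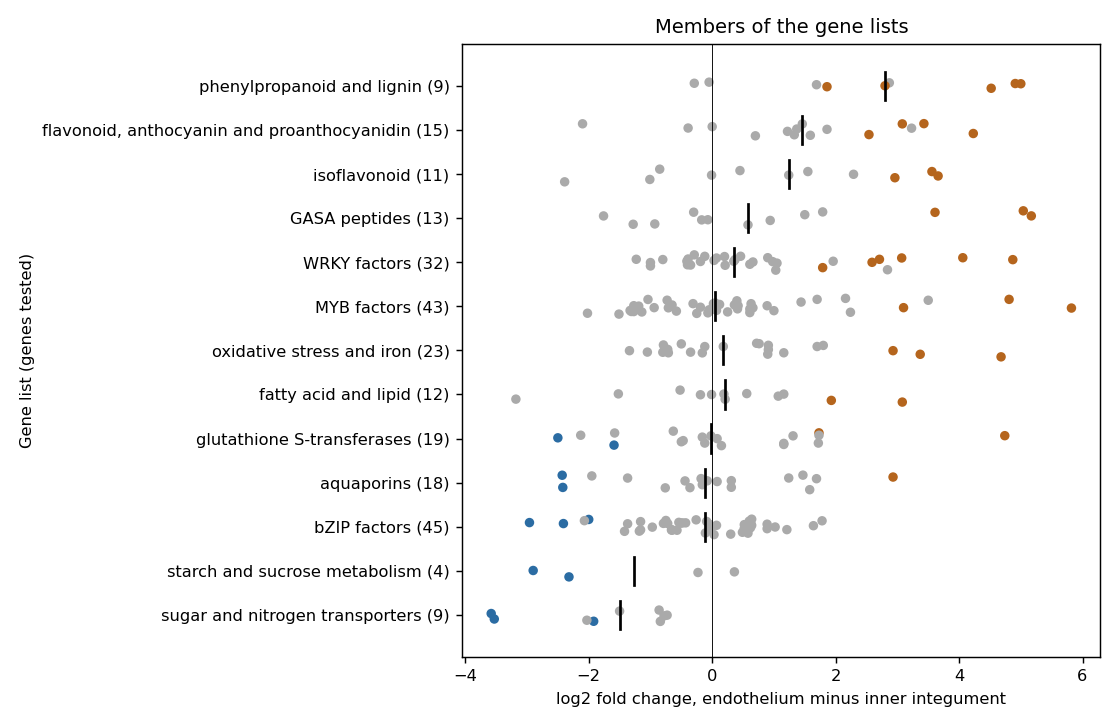
Log2 difference of each tested member (points) of 13 gene lists, endothelium minus inner integument. Brown points were called higher in the endothelium, blue points higher in the inner integument and grey points not called; black bars are medians. The phenylpropanoid members lie highest, with a median of 2.80, and all 9 sugar and nitrogen transporter members lie below zero.

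Transcription factor genes of the WRKY family, which bind W-box elements, were called higher in the endothelium for 6 of 32 tested members and in no case lower (median 0.36). The count was 3 without each of the 4 arrays. WRKY41 gave 2574.3 and 1290.4 in the endothelium against 43.8 and 50.2, at least 8.33-fold (4.87 ± 0.72, limma adjusted p = 0.00023). WRKY37 gave 2232.4 and 1941.5 against 24.6 and 374.6 (4.06 ± 0.75, adjusted p = 0.0018). Both kept their calls. WRKY51, one of the chosen suspensor transcripts, was at 7439.0 and 5280.6 against 1187.1 and 884.1 (2.59 ± 0.55, adjusted p = 0.005) and lost its call without endothelium replicate 1 or inner integument replicate 2. The other called members, named after their values were seen, were WRKY14, WRKY32 and WRKY47, with log2 differences of 3.07, 2.71 and 1.79. WRKY14 lost its call without endothelium replicate 2 or inner integument replicate 1, and WRKY32 and WRKY47 lost theirs without each of the 4 arrays.

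Of 43 MYB genes tested, 3 were called, all higher in the endothelium, while the family's median was 0.05. This share, 6.98%, was below the 7.9% of all genes with a symbol. MYB172 had the largest difference of any gene with a symbol, at 8616.9 and 12035.1 against 1253.1 and 9.6 (5.82 ± 1.02, limma adjusted p = 0.0011). The inner integument arrays differed widely and 1 was below background, so no fold is given. MYB56 was at 761.7 and 1000.7 against 7.3 and 27.4, at least 4.03-fold (4.81 ± 0.86, adjusted p = 0.0014). MYB57 was at 1160.4 and 1192.0 against 60.6 and 237.5 (3.10 ± 0.88, adjusted p = 0.034) and lost its call without inner integument replicate 1 or either endothelium array. MYB172 was higher still in the epidermis, at 39900 ± 7360, and the hilum, at 20000 ± 2660 (SD, n = 2 arrays each). Across the mean levels of the 8 compartments the genes most like it were HSF-01, a heat shock factor gene, at r = 0.972 and CHI4A at r = 0.95. HSF-01 followed the same regions, with 2493.6 and 8936.0 in the endothelium against 847.1 and 14.5 (4.87 ± 1.05, adjusted p = 0.0058). It lost its call without endothelium replicate 2 or inner integument replicate 2.

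Other genes with the largest excess in the endothelium had varied roles. The gene named H4 was at 40215.4 and 32420.8 against 639.1 and 702.3, 52.7-fold (5.72 ± 1.06, limma adjusted p = 0.0018), and it reached 24600 ± 4790 (SD, n = 3 arrays) in the suspensor. SARK, for a receptor-like kinase tied to leaf senescence in soybean, was at 5099.5 and 3498.6 against 459.0 and 9.3 (5.27 ± 1.10, adjusted p = 0.0046) and lost its call without inner integument replicate 2. It averaged 4300 ± 1130 in the endothelium and 788 ± 35.9 in the epidermis, the next compartment (SD, n = 2 arrays each). GER2 was at 21560.8 and 13175.1 against 1406.4 and 179.6, the latter below background (5.0 ± 0.85, adjusted p = 0.00085). GSTIR, for a glutathione S-transferase, a class of detoxifying enzymes, was at 6493.7 and 5268.1 against 105.3 and 381.9 (4.74 ± 0.79, adjusted p = 0.00073). H4, GER2 and GSTIR kept their calls and had their highest mean in the endothelium.

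Stress and redox genes among the largest differences were less steady. HSP23.9, for a small heat shock protein, gave 5826.3 and 3774.0 against 1644.3 and 3.9 (4.69 ± 1.18, limma adjusted p = 0.017). SODB2, for an iron superoxide dismutase, gave 8644.1 and 527.9 against 292.1 and 7.3 (4.68 ± 1.12, adjusted p = 0.013). The SODB2 signal was concentrated in endothelium replicate 1, and its highest mean was in the embryo proper, at 45500. Both lost their calls without inner integument replicate 2 or endothelium replicate 1, and HSP23.9 also without endothelium replicate 2. AOX1, for the mitochondrial alternative oxidase, was at 502.7 and 653.0 against 105.4 and 10.8, at least 2.67-fold (3.37 ± 0.77, adjusted p = 0.0091). PRX3 was at 445.3 and 694.5 against 107.0 and 29.6, at least 2.59-fold (adjusted p = 0.026). With SODB2 these were the 3 calls among 23 oxidative stress and iron genes (13.0%, against 7.9% of all genes with a symbol). All 3 were lost without inner integument replicate 2.

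The called genes on the sugar and nitrogen transporter list were all higher in the inner integument. Of 9 tested sugar and nitrogen transporter genes, 3 were called higher there and none in the endothelium, and all 9 had a negative log2 difference (median -1.5). The 3 are among 6 tested SWEET genes, whose proteins let sugars leave cells. SWEET34 was at 822.6 and 533.5 in the endothelium and at 9502.7 and 6881.0 in the inner integument, 11.9-fold higher in the latter (-3.58 ± 0.72, limma adjusted p = 0.0035). Both inner integument arrays were far above both endothelium arrays, and their mean of 8190 ± 1850 (SD, n = 2 arrays) was followed by 824 ± 241 (n = 3) in the endosperm. SWEET24 was at 5370.3 and 5149.0 against 50635.0 and 73504.3, 11.6-fold higher in the inner integument (-3.53 ± 0.91, adjusted p = 0.02), and averaged 25800 ± 2480 in the outer integument. SWEET29 was at 582.5 and 318.9 against 2477.1 and 1132.7 (-1.92 ± 0.51, adjusted p = 0.025).

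SWEET34 kept its call without any one array. SWEET24 lost its call without inner integument replicate 2 (adjusted p = 0.15) or either endothelium array, although its difference stayed between -3.26 and -3.56 in these fits. SWEET29 lost its call without endothelium replicate 2 or inner integument replicate 1. The list had 1 call without endothelium replicate 2 and 2 without each other array. The members not called included SWEET13 at -2.03, SWEET31 at -1.5, SWEET42 at -0.73, SUT1, for a sucrose carrier, at -0.78 and STP1, for a hexose carrier, at -0.84.

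Aquaporin genes, for water channels, gave calls in both directions. Of 18 tested, 2 (11.1%) were called higher in the inner integument and 1 (5.56%) in the endothelium. The shares of all genes with a symbol were 4.53% and 7.9%. The aquaporin median of -0.12 became 0.02 when the arrays were scaled to equal medians. PIP2-1 was at 8545.2 and 10258.4 in the endothelium against 44598.3 and 56119.5, 5.34-fold higher in the inner integument (-2.42 ± 0.44, limma adjusted p = 0.0016). This call held without any one array, but a second PIP2-1 probe set went the other way without being called (2.02, adjusted p = 0.24). PIP2-9, one of the chosen outer integument transcripts, was at 2629.3 and 3205.3 against 14758.1 and 16758.1 (-2.43 ± 0.67, adjusted p = 0.03) and lost its call without each of the 4 arrays. SIP1-3 was the member called higher in the endothelium, at 2103.4 and 2309.0 against 962.5 and 71.3 (2.93 ± 0.80, adjusted p = 0.028), and was lost in 3 of those fits.

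Starch genes were few on the list, with 2 of 4 called, both higher in the inner integument (median -1.27). GBSSIa, for the granule-bound starch synthase that makes amylose, was at 250.6 and 578.7 against 1380.4 and 2815.6, 4.99-fold higher in the inner integument (-2.32 ± 0.39, limma adjusted p = 0.00073), and kept its call. Its level there was far below that of the outer integument, 15900 ± 2200 (SD, n = 2 arrays). A second GBSSIa probe set differed by -0.6 without being called. With the spread from the 4 arrays alone, the starch list had no call. In that setting calls toward the endothelium fell to 1 flavonoid, 1 isoflavonoid and 3 WRKY genes. The oxidative stress, lipid and heat shock lists then had no call toward the endothelium. The phenylpropanoid list still had 5 such calls, and the sugar and nitrogen transporter list 3 toward the inner integument. BMY2, for a beta-amylase that breaks starch down, was at 350.9 and 328.6 against 6876.3 and 1011.0 (-2.90 ± 0.81, adjusted p = 0.031). It was highest in the inner integument of all compartments, and its call was lost without inner integument replicate 1 or either endothelium array.

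Several enzymes of carbon, nitrogen and aldehyde metabolism were also higher in the inner integument. GDH1, for a glutamate dehydrogenase, was at 669.2 and 514.3 against 5861.0 and 4475.6, 8.52-fold (-3.09 ± 0.63, limma adjusted p = 0.0037). ALDH10A2, for an aldehyde dehydrogenase, was at 881.4 and 618.7 against 7510.3 and 4473.3, 7.70-fold (-2.95 ± 0.54, adjusted p = 0.0016). Both separated the layers on every array and kept their calls. GDH2, a second glutamate dehydrogenase gene, went the opposite way, at 1507.7 and 1535.9 in the endothelium against 475.4 and 302.6 (1.96 ± 0.48, adjusted p = 0.016), but was lost in 3 of the 4 fits without an array. ADH2, for an alcohol dehydrogenase, was at 1406.0 and 961.6 against 10700.5 and 11056.0 (-3.21 ± 0.86, adjusted p = 0.026). GLYI-6, for a glyoxalase I, was at 361.9 and 135.0 against 2748.7 and 3011.4 (-3.60 ± 0.84, adjusted p = 0.011). ADH2 lost its call without each of the 4 arrays and GLYI-6 without endothelium replicate 2 or inner integument replicate 2.

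The genes with the largest excess in the inner integument also included wall, hormone and nodulin-named genes. SBPRP, for a proline-rich cell wall protein, was at 328.6 and 338.7 against 8462.1 and 2901.5, 14.2-fold (-3.83 ± 0.52, limma adjusted p = 0.00011). It is one of the chosen outer integument transcripts and averaged 46700 ± 4900 there against 5680 ± 3930 in the inner integument (SD, n = 2 arrays each), and the part of carry-over in its difference was not tested. NOD33 was at 4495.0 and 3382.8 against 42448.1 and 34211.8, 9.74-fold (-3.28 ± 0.67, adjusted p = 0.004). No other compartment came near this level, the endothelium being next at 3940 ± 786 and the endosperm following at 800 ± 712. ZEP, for the zeaxanthin epoxidase that feeds abscisic acid synthesis, was at 104.9 and 3.7 against 717.5 and 513.0, at least 3.42-fold (-3.67 ± 0.92, adjusted p = 0.017). PDH was at 430.8 and 24.8 against 1768.5 and 2107.5 (-3.85 ± 1.02, adjusted p = 0.024) and P42-1 at 61.0 and 68.0 against 389.5 and 554.2, at least 2.64-fold (adjusted p = 0.02). SBPRP and NOD33 kept their calls. ZEP and PDH lost theirs without endothelium replicate 2 or either inner integument array, and P42-1 without inner integument replicate 2 or either endothelium array.

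Regulators were also among the genes higher in the inner integument. HSF-35, a heat shock factor gene, had the largest difference of a gene with a symbol, at 92.9 and 218.7 against 4127.4 and 1632.8 (-4.03 ± 0.79, limma adjusted p = 0.0027), with endothelium replicate 1 below background. It kept its call and averaged 2880 ± 1760 in the inner integument (SD, n = 2 arrays) and 909 ± 54.2 in the endosperm. The genes most like it across the 8 mean levels were MYB133 at r = 0.914 and LUXC, named for an Arabidopsis clock gene, at r = 0.902. LUXC was at 2687.7 and 2244.3 against 15087.7 and 10216.7 (-2.33 ± 0.54, adjusted p = 0.01), whereas MYB133 was not called (adjusted p = 0.59). Of 45 bZIP factor genes, 3 (6.67%, against 4.53% of all genes with a symbol) were called higher in the inner integument and none in the endothelium, with a family median of -0.11 that became 0.01 when the arrays were scaled to equal medians. BZIP28 was at 2802.4 and 3105.3 against 10509.4 and 13379.4, 4.0-fold (-2.0 ± 0.36, adjusted p = 0.0014). BZIP126 was at 5381.0 and 3699.4 against 22637.4 and 24863.9 (-2.41 ± 0.53, adjusted p = 0.0067). BZIP125 was at 34.2 and 176.8 against 752.4 and 745.8 (-2.96 ± 0.87, adjusted p = 0.04).

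BZIP28 kept its call, and the list had 2 calls without each array but inner integument replicate 2, where it had 1. BZIP126 lost its call without either second replicate, and BZIP125 without endothelium replicate 1 or either inner integument array. Both are among the chosen outer integument transcripts. LUXC lost its call without endothelium replicate 2 or inner integument replicate 1. GT-2B, a trihelix factor gene, was at 830.1 and 639.0 against 4489.5 and 4893.5 (-2.66 ± 0.66, limma adjusted p = 0.015) and lost its call without inner integument replicate 2 or either endothelium array.

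**Figure D4:**
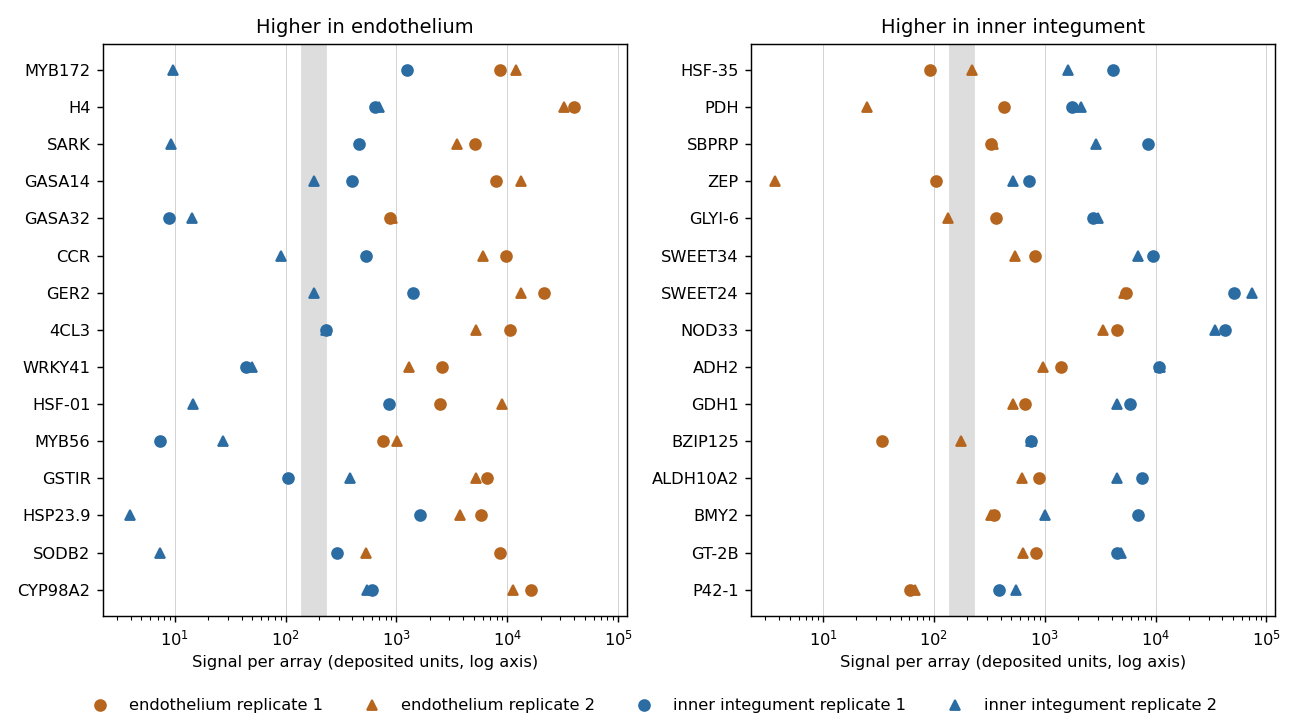
Signal of the 15 genes with a symbol and the largest difference in each direction, on a log axis, for each of the 4 arrays (brown, endothelium; blue, inner integument; circles, replicate 1; triangles, replicate 2). The grey band spans the backgrounds of the 4 arrays, 140.2 to 231.4. The brown and blue points do not overlap for any gene, which was a condition for being shown.

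The largest differences of all belonged to probe sets with little or no annotation. The widest, with no gene listed, was at 13135.9 and 8569.3 in the endothelium against 88.1 and 9.8, at least 48.1-fold (7.68 ± 0.74, limma adjusted p = 4.2e-06), and was higher still in the suspensor. The gene LOC100305545 was at 8448.6 and 3472.9 against 56.9 and 6.6, at least 24.6-fold (7.06 ± 0.87), and its mean in the endothelium, 5960 ± 3520 (SD, n = 2 arrays), was followed by 300 ± 146 (n = 3) in the suspensor. In the other direction an unnamed probe set was at 321.8 and 409.5 against 36315.9 and 40335.6, 101-fold higher in the inner integument (-6.66 ± 1.18, adjusted p = 0.0013). Its inner integument mean of 38300 ± 2840 (SD, n = 2 arrays) was followed by 1670 ± 1370 in the outer integument. The next was at 5.7 and 57.7 against 3334.0 and 3436.3, at least 18.7-fold (-6.41 ± 0.88, adjusted p = 0.00012), and was highest in the epidermis. These 4 and the other 6 probe sets with the largest differences kept their calls without any one array.

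The transcripts separating the layers were distributed differently over the seed. Of the 638 called higher in the inner integument, 424 (66.5%) had their highest mean there among the 8 compartments and 106 (16.6%) in the outer integument. Of the 1161 called higher in the endothelium, 256 (22.0%) peaked in the endothelium, 227 in the epidermis, 217 in the embryo proper, 165 in the suspensor, 160 in the hilum, 114 in the endosperm and 22 in the outer integument. In the median, the latter transcripts had a log2 level of 11.06 in the endothelium, between 9.92 and 10.92 in the other 6 compartments and 8.27 in the inner integument. The transcripts higher in the inner integument had a median of 11.86 there, 10.63 in the outer integument, 9.37 in the endothelium and 8.92 to 9.54 elsewhere. No test was made of these shares, and the share of all tested probe sets that peak in each compartment is not given here. Without it, neither 66.5% nor 22.0% is shown to be unusual for its compartment. The transcripts were selected on these same endothelium and inner integument levels, so none could peak in the lower layer. The gap between the medians of these layers follows from that selection as well. Of the 154 outer integument transcripts described above, 56 were called higher in the inner integument (8.78% of the calls in that direction) and none in the endothelium. Of the 428 suspensor transcripts, 58 were called higher in the endothelium and 5 in the inner integument. In the same order, the calls were 10 and 0 of 63 epidermis transcripts and 8 and 1 of 76 hilum transcripts. They were 11 and 5 of 180 for the endosperm and 7 and 3 of 96 for the embryo proper. For comparison, calls in these directions made up 5.11% and 2.81% of everything tested. These are shares of tested probe sets, whereas the 8.78% is a share of calls. The endosperm counts, set against the 180 transcripts, lay near 5.11% and 2.81%.

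**Figure D5:**
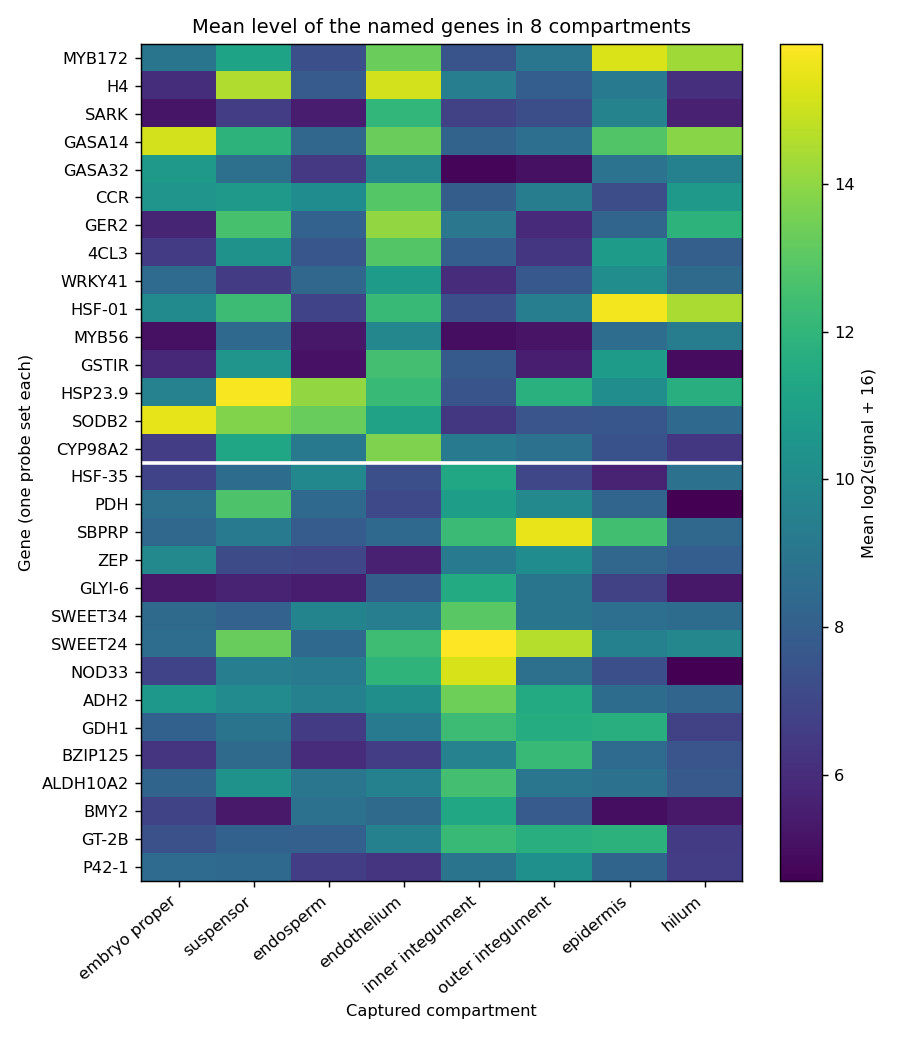
Mean log2(signal + 16), as colour, of the 15 genes with the largest difference in each direction (rows; endothelium above the white line, inner integument below) in the 8 captured compartments (columns). CCR, 4CL3 and CYP98A2 are brightest in the endothelium and SWEET34, SWEET24 and NOD33 in the inner integument, whereas MYB172 and HSF-01 are brightest in the epidermis.

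Hormone and lipid genes gave few calls. Among 12 genes of gibberellin, abscisic acid, cytokinin, ethylene and brassinosteroid pathways, ACS1, for an ethylene precursor synthase, was at 2163.7 and 560.7 in the endothelium against 38.1 and 59.7, at least 5.08-fold (4.13 ± 0.86, limma adjusted p = 0.0044). GAI1, for a DELLA repressor of gibberellin responses, was at 367.4 and 797.0 against 1735.0 and 1864.2, higher in the inner integument (-1.70 ± 0.50, adjusted p = 0.041). LAX11, for an auxin influx carrier, was the 1 call among 5 auxin genes, higher in the endothelium (2.08 ± 0.54, adjusted p = 0.021). Of 12 fatty acid and lipid genes, ACCA-1 and ACCB-2, for subunits of the plastid acetyl-CoA carboxylase that starts fatty acid synthesis, were higher in the endothelium (3.08 ± 0.79 and 1.93 ± 0.58). Each of these 5 calls was lost without at least 1 of the 4 arrays, and both lipid calls without either endothelium array.

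The remaining lists gave no more than 2 calls in a direction. Over all genes with a symbol, 7.9% were called higher in the endothelium and 4.53% in the inner integument. Glutathione S-transferases had 2 calls (10.5%) each way among 19 genes: GSTIR and GSTU41 higher in the endothelium, GSTZ3 and GSTU17 in the inner integument. Heat shock and folding genes had 2 (10.5%) higher in the endothelium and 1 (5.26%) in the inner integument of 19. Single calls were NAC2 of 8 NAC, AP2-9 of 7 AP2, ERF and DREB, LOX3 of 14 lipoxygenase and jasmonate, and GSA1 of 14 photosynthesis and chlorophyll genes, all higher in the endothelium. SGF14n of 8 14-3-3 genes and TUBB3, a tubulin gene, of 5 cell cycle, histone and cytoskeleton genes were higher in the inner integument, by 2.14-fold and 2.25-fold. Other than GSTIR and HSF-35, each of these calls was lost without at least 1 of the 4 arrays. AP2-9 and GSTU17 were each above background on only 1 of the 4 arrays. AP2-9 is one of the chosen hilum transcripts, and LOX3 and GSTU41 are among the chosen suspensor transcripts. The lists of 15 cytochrome P450, 11 cell wall and 19 nitrogen and amino acid genes gave no call beyond CYP98A2, SBPRP, GDH1 and GDH2. No member was called among 23 seed maturation and storage genes, 6 MADS-box, 3 homeobox, 3 triterpenoid saponin and sterol, 3 embryo and seed regulator, 7 defence and 5 metal and vacuolar transport genes, so AGL1L (0.26), MADS28 (-1.34) and SEP1 (-0.52) gave no call between the layers.

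For the named genes, called or not, 40 further probe sets were tested. Of these, 33 had the sign of the named probe set, 12 of them called, and 7 had the opposite sign, with none of the 7 called. Those of the same sign without a call included GSTIR (1.36), AOX1 (0.54), PRX3 (0.38), PDH (-0.78) and GDH1 (-1.95). The opposite ones included 1 each for MYB172 (-0.12), HSF-01 (-0.20), HIDH (-1.67), WRKY51 (-0.53) and GSA1 (-1.21).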

How the data were processed

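The authors deposited a linear intensity for every probe set on each array. The submitters' processing notes name GCOS 1.3, without saying how probes were summarised. Trimmed by 2% at either end, the mean over 61170 probe sets lay between 500.05 and 500.07 on each array, so no further scaling was applied. A scale of this kind makes levels relative to an array's total. The 37593 soybean probe sets were used, without 227 control and rRNA probe sets. Background was the 95th percentile of the 23350 pathogen probe sets, which may cross-react, so it is an upper estimate. A probe set was tested where it exceeded background on every array of at least 1 captured group (22742). Per array, 16177 to 19683 soybean probe sets were above background in the 4 compared samples, and the number of arrays limits the precision.

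Signals were analysed as log2(signal + 16), which understates changes of dim genes. One model of the 8 captured groups (19 arrays, 11 residual degrees of freedom) was fitted with limma 3.58.1 in R 4.3.3 (lmFit, eBayes with a trend), with a 2-sided contrast of the group means and p-values adjusted by Benjamini-Hochberg over all 22742. Log2 differences are endothelium minus inner integument, with standard errors, and all adjusted p-values are from this fit or its alternatives. The code was tested on simulated data. Replicate numbers were not shown to pair the samples: deviations of same-numbered arrays correlated at -0.0528 between the layers, and at -0.0692 to 0.276 (median 0.0137) over 59 such pairs of captured groups. This fit therefore has no replicate block, and one with it is among the alternatives.

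The platform annotation named 1 gene for 8677 soybean probe sets and several for 370; 28546 are unnamed here. Of 6031 genes, 6010 were found in the RefSeq table of Glycine_max_v4.0, used for names only, and 1005 had a symbol beyond a locus number. A gene was represented by its brightest tested probe set. Named were the 15 genes with a symbol and the 5 probe sets of any kind with the largest difference per direction (called, on a single gene where a symbol was needed, above background on both brighter arrays, no overlap), up to 3 called members per list and direction, the late anthocyanin and proanthocyanidin genes, and the 2 genes most like the leading one. Members and lists were chosen with earlier results of these data known. The transcripts of the embryo proper, suspensor, epidermis and hilum were followed as an addition made after the array values had been seen. Alternatives changed the offset, filter, arrays in the fit, scaling, trend, weights and replicates.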

Additional observations from a re-analysis of the deposited data

How the results depend on the processing

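The 1799 calls (1161 higher in the endothelium, 638 in the inner integument) became 2741 (1126 higher in the inner integument) with the spread from the 5 seed coat groups, 1051 (587 higher in the endothelium) from the 4 arrays alone, 2967 (1798 and 1169) without the 2 captured arrays of highest background, and 386 higher in the inner integument with array weights. Leaving out 1 array gave 832 to 2136 calls, 582 to 1593 higher in the endothelium and 234 to 543 in the inner integument. Offsets of 1 and 64, other filters, all 23 arrays, equal medians, quantile normalization and no trend gave 1500 to 2207. Equal medians moved the median log2 difference of all tested probe sets from 0.04 to 0.18 and the endothelium's share of calls from 64.5% to 72.0%. Replicate numbers were not shown to pair the samples, and a fit with the replicate block gave 1999 calls (1273 and 726). No call changed sign in any of these fits. Values that were not called did. RCA14 was 0.01 with equal medians, LAR1 -0.14 and WRI1B 0.04 with an offset of 1, and LEC1-A -0.02 with an offset of 64. Leaving out 1 array spread MYB133 from -1.32 to 0.16, DFR2 from -0.34 to 3.01, LAR1 from -1.02 to 1.03, RCA14 from -0.57 to 0.32, GASA27 from -0.61 to 0.28, GASA6 from -0.30 to 3.30, LEC1-A from -1.22 to 1.35 and WRI1B from -2.24 to 1.53. The causes were not tested. With 2 arrays a layer, a gene without a call is not shown to be equal, and signals below background have no order.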
